A study of Mus musculus with 16 samples.

Results

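The cells described here are the unnamed cells of coarse cluster 1, a population of the mouse brown adipose tissue stroma that the authors' annotation numbers but does not name. They were chosen by 3 criteria. Their cluster number at resolution 0.1, the coarsest clustering deposited, was 1. Their barcode was absent from the table in which the authors gave names to cells, and their cluster number at resolution 1.8, the finest clustering deposited, was not 23, 36 or 46. By these criteria 17049 of 109723 cells belonged to the population, which is 15.5% of the series. Coarse cluster 1 held 17719 cells, of which 670 of cluster 36 were left out. It held 0 cells of clusters 23 and 46 and 0 of the 24352 cells that carry a name. The label could not be checked against marker genes, because gene values were not analysed here, and the finer clusters are therefore called by number.

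Single-cell RNA sequencing had been applied to the stromal vascular fraction of interscapular brown adipose tissue of C57BL6J mice. The study asked how the cells of this tissue change with housing temperature. Mice were kept at 30 °C for 1 week (thermoneutral, TN), at 22 °C for 1 week (room temperature, RT), at 5 °C for 2 days (cold2) or at 5 °C for 7 days (cold7), with 4 libraries per group. All groups shared the strain, the enzymatic digestion, the removal of the floating adipocyte layer, the lysis of red blood cells, the depletion of dead cells on a column kit and the Chromium Single Cell 3′ v3 chemistry. These steps deplete mature fat cells and red blood cells in every group by design. The names that the authors gave to cells still include adipocyte clusters, so their absence is not assumed. The labels do not say whether a library came from 1 mouse or from several, nor what a replicate number stands for, so p-values measure the spread between these libraries.

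Brown adipose tissue makes heat by burning fuel in its mitochondria, and cold exposure raises that demand. Its stromal vascular fraction holds the cells other than mature fat cells, among them vessel, immune, nerve sheath and progenitor cells. Graph clustering sorts cells by the likeness of their expression, and a higher resolution cuts the same cells into smaller groups, which need not be separate cell types.

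Libraries held 1473 to 10005 cells, and 208 to 4045 of the population. Library medians in the population ran from 2335 to 6733 unique molecular identifiers (UMIs, the count of captured RNA molecules) per cell. At most 2 cell barcodes of the population were shared by any pair of libraries, and 28 barcodes occurred in more than 1 library. Replicate 1 of cold2 stood apart in its other cells, with a median of 31.6% mitochondrial UMIs and 10849 UMIs per cell. Its cells of the population did not share this, with a median of 3.98% mitochondrial UMIs and 2476 UMIs per cell. No cell of that library carries a name, which has no bearing on the population, since coarse cluster 1 held 0 named cells in any library.

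The population was found in every library and at every housing temperature, and its share of all cells did not pass the test in any comparison of housing groups. It was 7.42%, 13.6%, 40.4% and 10.4% of all cells in TN replicates 1 to 4. In RT replicates 1 to 4 it was 7.32%, 15.6%, 13.7% and 23.7%. The cold2 replicates held 6.79%, 10.7%, 11.6% and 18.2%, and the cold7 replicates 19.4%, 11.1%, 16.9% and 20.4%. All 4 groups overlapped, and TN replicate 3 was the highest library, at 40.4% (95% Wilson interval 39.5 to 41.4, which covers counting error only). That library supplied 23.7% of the cells of the population.

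**Figure D1:**
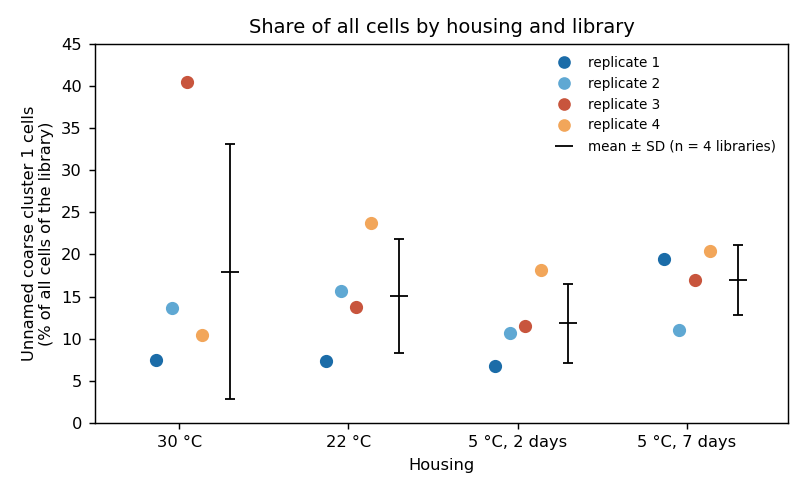
Share of each library's cells (y axis, percent) that were unnamed coarse cluster 1 cells, by housing (x axis), with 1 point per library coloured by replicate number and bars for the mean ± SD of 4 libraries. The groups overlap, and TN replicate 3 lies at 40.4%, above every other library.

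Group means were 17.97% ± 15.2 in TN, 15.1% ± 6.77 in RT, 11.8% ± 4.74 in cold2 and 17.0% ± 4.19 in cold7 (SD, n = 4 each). The largest fitted difference was that between cold7 and cold2, with a log2 odds ratio of 0.66 ± 0.65 (SE) and a Benjamini-Hochberg adjusted p of 0.555 in limma. Across the 6 comparisons the adjusted p in limma lay between 0.555 and 0.985. Exact permutation tests of the shares gave two-sided p-values of 0.171 to 0.971, where the smallest possible with 4 libraries against 4 is 0.0286. As background, 24 classes of cells were tested in this fit. Of these 0% passed for RT against TN, 12.5% for cold2 against TN and 4.17% for cold7 against TN. For cold2 against RT, cold7 against RT and cold7 against cold2 the percentages were 8.33%, 0% and 12.5%. For cold2 against RT and cold7 against cold2 the sign was the same whichever library was left out, with -0.73 to -0.07 and 0.39 to 0.93. In the other 4 comparisons it rested on single libraries. Without TN replicate 3 the log2 odds ratio was 0.53 for RT against TN and 0.15 for cold2 against TN, in place of -0.11 and -0.49 with it. Without RT replicate 1, RT against TN gave 0.24, and cold7 against RT gave -0.07 in place of 0.28. For cold7 against TN, with 0.16 over all libraries, leaving out TN replicate 1 or TN replicate 4 gave -0.22 or -0.04. Within replicates 1 and 2 the ratios for RT, cold2 and cold7 against TN were 0.10, -0.27 and 0.62, and within replicates 3 and 4 they were -0.33, -0.72 and -0.29.

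At resolution 1.8 the population fell into 10 numbered clusters, of which 5 made up nearly all of it. Cluster 3 held 6118 cells (35.9%), cluster 6 held 5426 (31.8%), cluster 14 held 2465 (14.5%), cluster 16 held 2386 (13.995%) and cluster 15 held 553 (3.24%). All cells of clusters 6, 14 and 16 in the series belonged to the population, as did all but 1 of the 6119 cells of cluster 3. Cluster 15 was divided between coarse clusters, with 553 of its 2446 cells in coarse cluster 1 and 1889 in coarse cluster 6. The remaining members were 74 cells of cluster 49, 14 of cluster 25, 6 of cluster 30, 4 of cluster 27 and 3 of cluster 29. These small sets lay mostly in other coarse clusters, from 73.7% of cluster 49 in coarse cluster 0 to 99.6% of cluster 27 in coarse cluster 10. They had a mean under 10 cells per library and entered no test.

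Clusters 3, 6, 14 and 16 were present in every library, but in proportions that followed the replicate number. Clusters 14 and 16 together made up 66.8% and 94.4% of the population in TN replicates 1 and 2, against 14.9% and 16.9% in TN replicates 3 and 4. In RT they made up 85.6% and 76.7% in replicates 1 and 2, against 5.62% and 6.71% in replicates 3 and 4. In cold2 the values were 18.3% and 78.4% in replicates 1 and 2, against 9.50% and 3.13% in replicates 3 and 4. In cold7 they were 59.1% and 82.1% in replicates 1 and 2, against 3.93% and 6.98% in replicates 3 and 4. Every library numbered 1 or 2 lay above every library numbered 3 or 4. The nearest were cold2 replicate 1, at 18.3%, and TN replicate 4, at 16.9%. Means were 70.2% ± 23.6 in replicates 1 and 2 and 8.46% ± 5.01 in replicates 3 and 4 (SD, n = 8 each). The sum of these clusters was formed after their values had been seen and was not tested.

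**Figure D2:**
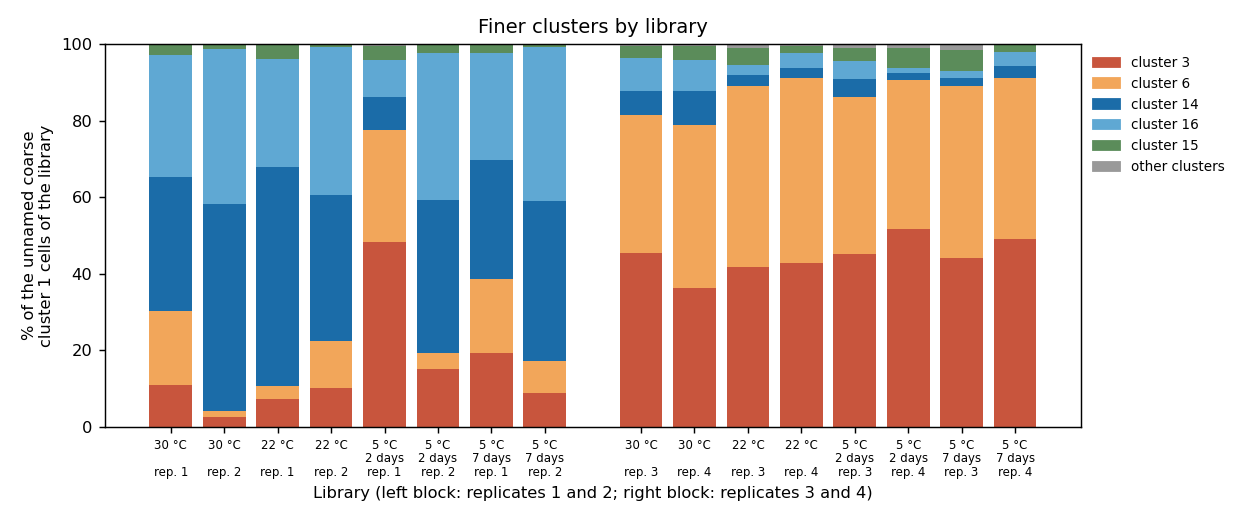
Make-up of the unnamed coarse cluster 1 cells in each of the 16 libraries (x axis, replicates 1 and 2 in the left block and replicates 3 and 4 in the right block), as percent of those cells in each finer cluster (y axis). Clusters 14 and 16 (blue) made up 18.3% to 94.4% of the bars on the left and 3.13% to 16.9% on the right.

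Cluster by cluster, cluster 14 was 4.45% ± 2.13 of all cells in replicates 1 and 2 and 0.80% ± 0.73 in replicates 3 and 4. Cluster 16 was 3.84% ± 1.93 of all cells in replicates 1 and 2 and 0.94% ± 1.06 in replicates 3 and 4. Cluster 3 was 1.61% ± 1.26 of all cells in replicates 1 and 2 and 8.78% ± 4.56 in replicates 3 and 4, and cluster 6 was 1.37% ± 1.196 in replicates 1 and 2 and 8.11% ± 3.42 in replicates 3 and 4. Cluster 15 cells of the population were 0.21% ± 0.10 in replicates 1 and 2 and 0.67% ± 0.34 in replicates 3 and 4 (SD, n = 8 each, for all 5 clusters). So clusters 14 and 16 were higher, and clusters 3, 6 and 15 lower, in replicates 1 and 2.

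This difference was read as the coefficient for replicates 1 and 2 against replicates 3 and 4 in a limma fit that also held the 4 housing groups. It was chosen with earlier results on depth by replicate number known. As shares of all cells, 5 of 5 clusters passed, where 19% of the 58 features tested did. The log2 odds ratio was 2.57 ± 0.49 (SE, adjusted p = 0.000845, limma) for cluster 14 and 2.32 ± 0.53 (adjusted p = 0.00331, limma) for cluster 16. It was -2.79 ± 0.51 for cluster 3 and -3.10 ± 0.57 for cluster 6 (adjusted p = 0.000593 for each, limma), and -1.62 ± 0.42 for cluster 15 (adjusted p = 0.00899, limma). All 5 passed whichever library was left out. As shares of the population itself, 4 of 5 clusters passed, where 26.5% of the 49 features did, with 3.9 ± 0.44 for cluster 14, 3.50 ± 0.41 for cluster 16, -2.55 ± 0.44 for cluster 3 and -2.89 ± 0.57 for cluster 6. Cluster 15 gave -0.91 ± 0.40 (adjusted p = 0.106, limma), and of the fits that left out 1 library it passed only in that without RT replicate 1, with -1.16. Shares within a library sum to a fixed total, so these clusters are not independent of each other. For the population as a whole the coefficient was -0.87 ± 0.40 (adjusted p = 0.157, limma), where 4.17% of the 24 classes passed.

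On average, depth moved with the same numbers. The median UMI count of the population was 4762.5 ± 1392 in replicates 1 and 2 and 3230 ± 591 in replicates 3 and 4, and that of all other cells was 5659 ± 2619 in replicates 1 and 2 and 2731 ± 623 in replicates 3 and 4 (SD over libraries, n = 8 each). The population in cold2 did not follow this, with 2476, 3760, 3518.5 and 2335 UMIs in replicates 1 to 4. For the other cells, the mean of replicates 1 and 2 includes cold2 replicate 1, at 10849 UMIs. Whether depth, or another property of the libraries, has a part in the division by replicate number was not tested, and the labels give no date or batch for the libraries.

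Joining the clusters at a lower resolution took most of this division away. At resolution 0.4, clusters 3 and 16 lay together in 1 cluster, numbered 3 there, with 6105 and 2385 of their cells. Clusters 6 and 14 lay together in another, numbered 4 there, with 5425 and 2462 cells. Cluster 15 was placed mainly in cluster 12 of that resolution, with 468 of the 553 cells. The population was therefore cut in 2 ways: by the pairs 3 with 16 and 6 with 14, and, within each pair, into a cluster that was high in replicates 1 and 2 and one that was high in replicates 3 and 4. Within the first pair, cluster 16 held 69.6% ± 23.5 of the cells in replicates 1 and 2 and 8.97% ± 5.57 in replicates 3 and 4. Within the second pair, cluster 14 held 73.7% ± 24.5 in replicates 1 and 2 and 8.71% ± 4.85 in replicates 3 and 4 (SD, n = 8 each).

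The share of the population in cluster 3 of resolution 0.4 was 48.3% ± 6.5 in replicates 1 and 2 and 49.1% ± 4.01 in replicates 3 and 4. Its coefficient for the replicate numbers was -0.05 ± 0.17 (adjusted p = 0.804, limma), and that of cluster 4 was 0.22 ± 0.16 (adjusted p = 0.326, limma). Cluster 12, with 1.11% ± 0.93 of the population in replicates 1 and 2 and 3.44% ± 1.24 in replicates 3 and 4, passed, with -1.85 ± 0.48 (adjusted p = 0.0440, limma). That is 1 of 3 clusters, where 18.2% of the 22 features of that resolution passed. As shares of all cells it was also 1 of 3, namely cluster 12 with -2.55 ± 0.46 (adjusted p = 0.000888, limma), where 5.26% of 38 features passed.

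**Figure D3:**
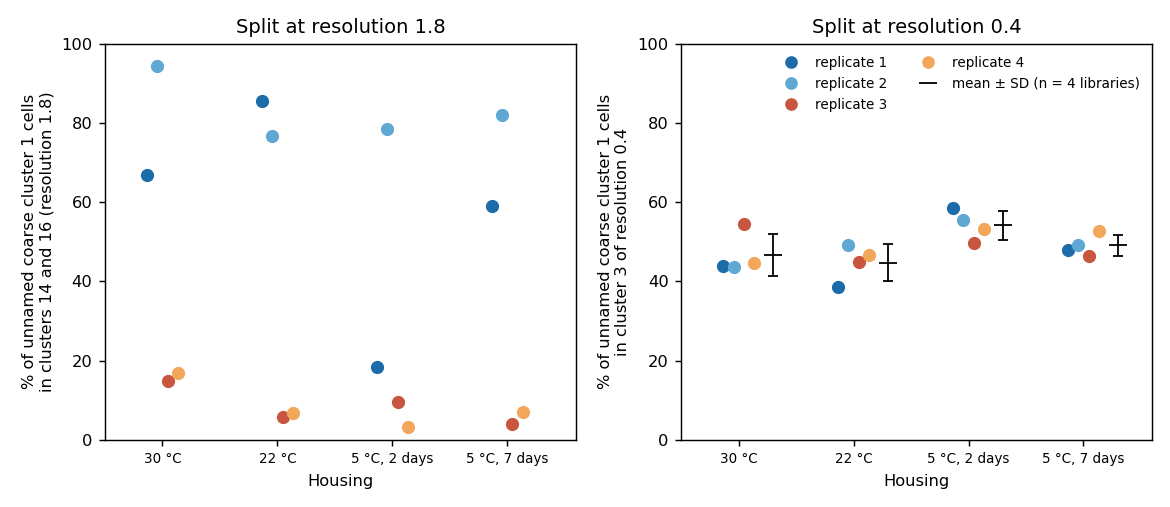
The same cells split at 2 resolutions, by housing (x axis), with 1 point per library coloured by replicate number. The percent in clusters 14 and 16 of resolution 1.8 (left) separates replicates 1 and 2 from replicates 3 and 4, while the percent in cluster 3 of resolution 0.4 (right, with mean ± SD of 4 libraries) lies between 38.5% and 58.5% in all libraries.

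The division at resolution 0.4 was close to even at every housing temperature. Cluster 3 of that resolution held 43.8%, 43.6%, 54.6% and 44.7% of the population in TN replicates 1 to 4 and 38.5%, 49.1%, 44.9% and 46.6% in RT. It held 58.5%, 55.5%, 49.7% and 53.3% in cold2 and 48.0%, 49.2%, 46.4% and 52.8% in cold7. The cold2 libraries all lay above the RT libraries, which reached 49.1%. The means were 54.2% ± 3.68 in cold2 and 44.8% ± 4.56 in RT (SD, n = 4 each), and the log2 odds ratio was 0.55 ± 0.24 with an adjusted p of 0.124 in limma, which did not pass. For cluster 4 of that resolution it was -0.62 ± 0.25 (adjusted p = 0.0996, limma). In the other 5 comparisons the adjusted p of these clusters was 0.214 or more in limma. Of 3 clusters, 0 passed in any comparison, where 0% of the 22 features passed for RT against TN, 13.6% for cold2 against TN, 13.6% for cold7 against TN, 4.55% for cold2 against RT, 9.09% for cold7 against RT and 9.09% for cold7 against cold2. At an unadjusted p under 0.05 the count was 2 for cold2 against RT. As shares of all cells, 0 of 3 clusters passed in limma, where 0%, 13.2%, 0%, 5.26%, 0% and 2.63% of 38 features did in the same order of comparisons.

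Against housing, the 5 finer clusters of resolution 1.8 gave no call. The fits counted here held no term for the replicate numbers, so their spread between libraries includes the division by those numbers. As shares of all cells, 0 of 5 passed in any of the 6 comparisons with limma, 0 had an unadjusted p under 0.05 and 0 passed with edgeR. Of all 58 features, 0% passed for RT against TN, 10.3% for cold2 against TN, 0% for cold7 against TN, 5.17% for cold2 against RT, 0% for cold7 against RT and 3.45% for cold7 against cold2. As shares of the population, 0 of 5 passed with limma, 0 had an unadjusted p under 0.05 and 0 passed with edgeR. Of the 49 features of that fit, 0%, 6.12%, 2.04%, 4.08%, 2.04% and 2.04% passed in the same order of comparisons.

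Among these, the clusters furthest from 0 were 14 and 16 in cold2 against TN. Cluster 14 was 0.580%, 4.27%, 0.544% and 0.320% of all cells in cold2 replicates 1 to 4, against 2.59%, 7.35%, 2.54% and 0.901% in TN. Cluster 16 was 0.660%, 4.12%, 0.554% and 0.250% in cold2, against 2.37%, 5.54%, 3.49% and 0.851% in TN. Replicate 2 was the highest of both groups for either cluster, and the groups overlapped. The log2 odds ratio was -1.69 ± 1.12 for cluster 14 and -1.69 ± 1.09 for cluster 16 (adjusted p = 0.547 for each, limma). In 27 other settings, some with the replicate numbers in the fit, neither cluster passed. The lowest adjusted p there was 0.217 for cluster 14 and 0.237 for cluster 16 (limma or edgeR). Replicates 1 and 2 alone gave -1.51 and -1.16 for these clusters, and replicates 3 and 4 alone gave -1.87 and -2.22.

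In cold7 against TN, cluster 3 was 3.73%, 0.976%, 7.48% and 10.0% of all cells in cold7 replicates 1 to 4 and 0.820%, 0.350%, 18.4% and 3.77% in TN. Cluster 6 was 3.77%, 0.918%, 7.60% and 8.55% in cold7 and 1.43%, 0.233%, 14.6% and 4.42% in TN. In both clusters the groups overlapped, with TN replicate 3 the highest library and TN replicate 2 the lowest. The log2 odds ratios were 0.91 ± 1.19 and 0.81 ± 1.33 (adjusted p = 0.676 and 0.742, limma). Within replicates 1 and 2 they were 1.81 and 1.64, and within replicates 3 and 4 they were 0.02 and -0.02. In RT against TN the adjusted p of the 5 clusters was 0.944 to 0.957 in limma, with ratios of -0.80 for cluster 16 to 0.28 for cluster 3.

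Cluster 15 was the smallest of the 5 and lay at the border of coarse clusters 1 and 6. Its members numbered 3 to 127 per library and were 0.64% to 5.38% of the population. The coarse cluster 1 side had 4588 UMIs and 1330 genes per cell at the median, against 4387 UMIs and 1386 genes on the coarse cluster 6 side. These values pool libraries of different depth. Within libraries, the coarse cluster 1 side was higher in UMIs in 16 of 16, with a median ratio of 1.15, and higher in genes in 12 of 16, with a median ratio of 1.02, so the pooled order of the gene numbers did not hold within most libraries. Phase calls other than G1 were made for 84.6% of the pooled cells on the coarse cluster 1 side and 80.3% on the other, and the coarse cluster 1 side was higher in 13 of 16 libraries. The cells of coarse cluster 6 outside cluster 15 had a pooled median of 3450 UMIs. No test was made of these values.

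The finer clusters also differed in depth. Pooled medians were 4885 UMIs per cell in cluster 16, 4588 in cluster 15, 3891 in cluster 14, 3153 in cluster 3 and 2694 in cluster 6. Pooling mixes clusters with the libraries that hold most of them, so the order was also read within libraries, where clusters 3 and 14 stood the other way round. Cluster 3 was above cluster 14 in 14 of 16 libraries, with a median ratio of 1.12. Cluster 15 had a higher median than cluster 16 in 16 of 16 libraries, by a factor of 1.25 at the median and 1.06 to 1.68 over the libraries. Cluster 16 was above cluster 14 in 16 of 16 libraries, with a median ratio of 1.304, and cluster 3 was above cluster 6 in 15 of 16, with a median ratio of 1.196. Within the pairs joined at resolution 0.4, cluster 16 was above cluster 3 in 15 of 16 libraries (median ratio 1.204) and cluster 14 above cluster 6 in 14 of 16 (median ratio 1.05). So in most libraries the cluster that was high in replicates 1 and 2 was also the deeper one of its pair, including libraries numbered 3 or 4. No test was made of this order, since the clusters were formed from the same expression values.

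**Figure D4:**
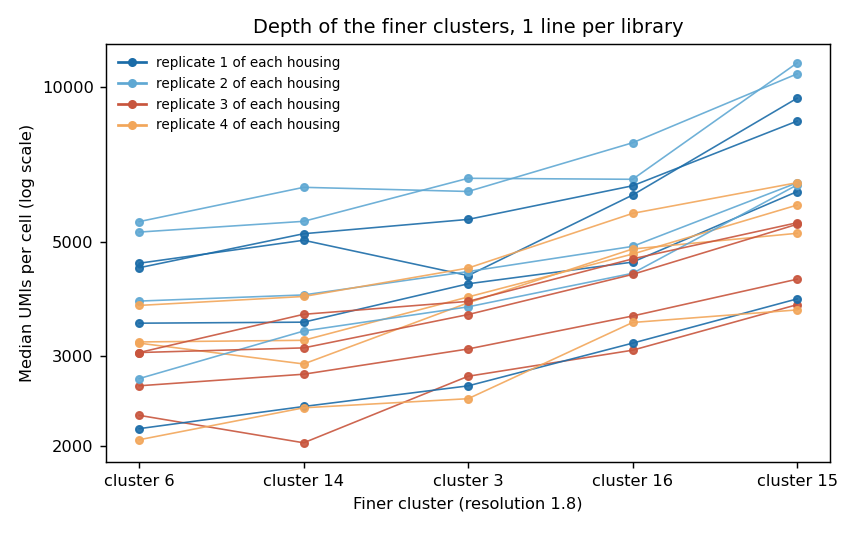
Median UMIs per cell (y axis, log scale) in each of the 5 finer clusters (x axis), with 1 line per library coloured by replicate number. Lines climb toward cluster 15, which is above cluster 16 in 16 of 16 libraries, and the lines of replicates 1 and 2 mostly lie above those of replicates 3 and 4.

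Set against all other cells of the same library, the population was not deeper or shallower to a degree that passed the test. Its median UMI count averaged 3996 ± 1301 in the population and 4195 ± 2381 in the other cells (SD, n = 16 libraries), and was higher in the population in 9 of 16 libraries. The difference of -198 UMIs had a paired exact sign-flip permutation p of 0.848. It was 347 UMIs without cold2 replicate 1 (exact permutation p = 0.321, n = 15), so its sign rests on that library. Detected genes were 1250 ± 293 per cell in the population and 1437 ± 445 in the other cells, a difference of -187 (exact permutation p = 0.0743, adjusted p = 0.149 over 2 tests). The log10 number of genes divided by the log10 number of UMIs was lower in the population in 15 of 16 libraries, with a mean of 0.862 in the population against 0.880 in the other cells.

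Mitochondrial RNA took a smaller share in the population than in the other cells of most libraries. The library median of mitochondrial UMIs averaged 3.42% ± 0.752 in the population and 5.57% ± 7.01 in the other cells (SD, n = 16), and was lower in the population in 15 of 16 libraries. Most of that gap came from cold2 replicate 1. Without it the averages were 3.38% ± 0.763 in the population and 3.83% ± 0.932 in the other cells (SD, n = 15), with the population lower in 14 of 15 libraries. The other cells are a mixed set, and not all of them lay above the population. Those of coarse cluster 6 outside cluster 15 had a pooled median of 2.63%, against a pooled 3.33% in the population. Only 4 of the 17049 cells (0.0235%) had at least 20% mitochondrial UMIs, against 7418 of the 92674 other cells (8.004%). Of these 7418 cells, 5416 came from cold2 replicate 1, and without that library the counts were 2 of 16370 cells of the population (0.0122%) against 2002 of 83352 other cells (2.402%). No cell of the population exceeded 20000 UMIs, the highest having 18674, against 4.75% of the other cells. Doublets were not called, because gene values were not analysed here. These values enter no test, since mitochondrial genes may have been used for the clustering.

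The cells of the population were mostly called S or G2M. A phase call is made from 2 scores, 1 for genes of DNA synthesis (S) and 1 for genes of mitosis (G2M). In 109723 of 109723 cells the deposited call was G1 where both scores were under 0 and otherwise the phase of the larger score. Calls of S or G2M were made for 81.1% ± 6.14 of the population and 48.8% ± 12.4 of the other cells (SD, n = 16), with the population higher in 16 of 16 libraries. The other cells are a mixed set, and a high share of such calls was not particular to the population. Pooled over libraries, it was 77.8% in the cells of coarse cluster 6 outside cluster 15 and 80.7% in the population. The scores themselves lay near 0. Library medians averaged 0.0203 for the S score and -0.00502 for the G2M score in the population, and -0.0189 for S and -0.0391 for G2M in the other cells. Both scores were within 0.05 of 0 in 45.2% of the population. An S score over 0.2 was found in 0.217% of the population and 0.646% of the other cells, and a G2M score over 0.2 in 0.0293% of the population and 0.552% of the other cells. A large share of calls therefore went with few high scores, and no statement on dividing cells can be drawn from the calls alone. Free RNA in the droplets and depth can also enter such scores, and their part was not tested.

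By finer cluster, the phase calls followed the pairs of resolution 0.4 rather than the replicate numbers. S or G2M was called for 84.6% of cluster 3, 85.1% of cluster 16 and 84.6% of cluster 15, but for 76.6% of cluster 6 and 75.6% of cluster 14. Cluster 3 was above cluster 6 in 15 of 16 libraries and cluster 16 above cluster 14 in 13 of 16. Cluster 16 was above cluster 3 in 6 of 16 libraries and cluster 14 above cluster 6 in 7 of 16. In median UMIs, cluster 3 was above cluster 6 in 15 of 16 libraries and cluster 16 above cluster 14 in 16 of 16. Cluster 16 was also above cluster 3 in 15 of 16, and cluster 14 above cluster 6 in 14 of 16. The part of depth was not tested, and the clusters were formed from the same expression values as the scores. In the limma fit the coefficient for replicates 1 and 2 against 3 and 4 lay between -0.36 and 0.40 for clusters 3, 6, 14 and 16, and 0 of 4 passed, where 8.7% of 23 features did. The number of these clusters with an unadjusted p under 0.05 was also 0, and edgeR was not run on phase calls.

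Phase calls also differed between housing groups in some of these clusters. Over the whole population, S or G2M was called in 72.2%, 75.6%, 78.7% and 79.9% of the cells in TN replicates 1 to 4. It was called in 90.9%, 90.03%, 84.7% and 89.0% in RT, in 77.3%, 85.0%, 87.6% and 78.7% in cold2, and in 76.8%, 71.2%, 78.6% and 80.7% in cold7. All RT libraries lay above all TN and all cold7 libraries. The means were 88.7% ± 2.75 in RT and 76.6% ± 3.43 in TN, a difference of 12.04 percentage points, and 76.8% ± 4.07 in cold7 against the same RT libraries, a difference of -11.8 (SD, n = 4 each). Both comparisons had the smallest possible exact permutation p, 0.0286. The adjusted permutation p was 0.343 over the 24 tests of depth, genes, mitochondrial share and phase, so neither passed. An adjusted p under 0.05 would need many of the 24 tests to reach that smallest p. The adjusted test could therefore hardly pass here, and no absence of a difference is read from it. The RT libraries are shared by the 2 comparisons. The difference between RT and TN was 16.5 in replicates 1 and 2 alone and 7.57 in replicates 3 and 4 alone, and that between cold7 and RT was -16.4 in replicates 1 and 2 and -7.19 in replicates 3 and 4. Among cells of 2000 to 5000 UMIs, a window chosen after seeing the data, it was 86.3% ± 3.59 in RT and 77.3% ± 4.07 in TN (exact permutation p = 0.0286, adjusted p = 0.0857 over 6 tests). In the same window cold7 gave 76.8% ± 4.44, a difference of -9.49 from RT with the same p-values. The adjustment over these 6 tests has the same limit.

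**Figure D5:**
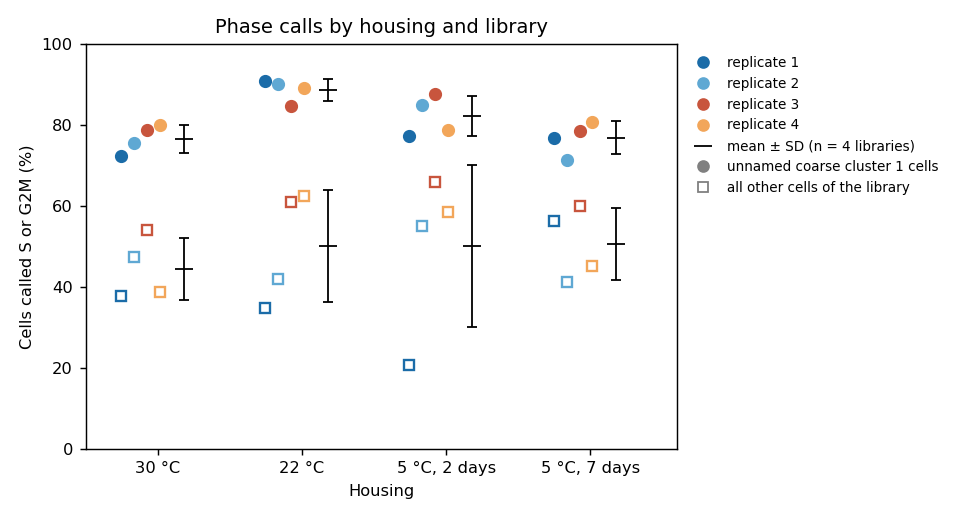
Percent of cells called S or G2M (y axis) by housing (x axis), for the unnamed coarse cluster 1 cells (filled circles) and all other cells of the same library (open squares), with 1 point per library coloured by replicate number and bars for the mean ± SD of 4 libraries. In the population the RT libraries, at 84.7% to 90.9%, lie above the TN and cold7 libraries, while the other cells of the groups overlap.

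The other cells gave 50.0% ± 13.8 in RT and 44.4% ± 7.71 in TN (exact permutation p = 0.486, n = 4 each). In cold7 they gave 50.6% ± 8.87 (SD, n = 4), so their mean did not fall from RT as that of the population did. Taken as the population minus the other cells of the same library, the difference between RT and TN was 6.40 percentage points (exact permutation p = 0.514) and that between cold7 and RT -12.4 (exact permutation p = 0.257). The other cells varied widely between libraries. These tests thus did not show the change in phase calls to be larger in the population than in the rest of the tissue's cells.

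On the log2 odds scale, cluster 16 moved most in RT against TN and in cold7 against RT. As percent of cells, cluster 6 moved about as far in RT against TN, with library means of 72.8% in TN and 86.4% in RT. The means of cluster 16 were 80.3% in TN and 93.6% in RT. S or G2M was called in 74.7%, 76.8%, 85.4% and 84.3% of its cells in TN replicates 1 to 4 and in 98.3%, 93.4%, 91.9% and 90.9% in RT. It was called in 83.3%, 89.4%, 83.3% and 72.0% in cold2 and in 82.0%, 78.1%, 80.8% and 72.7% in cold7. All RT libraries lay above all libraries of the other 3 groups. The log2 odds ratio was 1.82 ± 0.46 for RT against TN (adjusted p = 0.0106, limma) and -1.87 ± 0.49 for cold7 against RT (adjusted p = 0.00765, limma). For cold2 against RT it was -1.63 ± 0.46 (adjusted p = 0.0633, limma), which passed without RT replicate 4 or cold2 replicate 2, with adjusted p of 0.0297 and 0.0273 in limma. The fit used libraries with at least 20 cells of a cluster and so left out cold7 replicate 4, with 11 cells. Without TN replicate 1 the adjusted p for RT against TN was 0.0618 in limma, with a ratio of 1.65.

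Cluster 6 gave 66.4%, 75%, 74.04% and 75.8% in TN, 85.7%, 91.0%, 82.7% and 86.1% in RT, 71.4%, 90.5%, 83.8% and 72.0% in cold2, and 70.8%, 78.1%, 74.3% and 80.2% in cold7. Again the RT libraries lay above all TN and all cold7 libraries, and they overlapped with cold2. It rose in RT against TN (1.34 ± 0.45, adjusted p = 0.0251, limma) and fell in cold7 against RT (-1.08 ± 0.42, adjusted p = 0.0344, limma). Replicate 1 of RT and replicate 2 of TN, with 7 and 4 cells, were not in the fit. The first call was lost without TN replicate 1, TN replicate 3 or RT replicate 2, with adjusted p of 0.0999, 0.0523 and 0.0921 in limma. The second was lost without RT replicates 2 or 4 or cold7 replicates 1, 2 or 3, with adjusted p of 0.0527 to 0.145 in limma.

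Cluster 3 gave 79.3%, 100%, 81.8% and 84.1% in TN, 86.7%, 90.2%, 87.6% and 91.7% in RT, 82.01%, 91.8%, 93.3% and 83.4% in cold2, and 83.9%, 82.4%, 82.1% and 82.4% in cold7. The value of 100% came from 6 cells of TN replicate 2, and neither that library nor RT replicate 1, with 15 cells, was in the fit. It fell in cold7 against RT (-0.90 ± 0.37, adjusted p = 0.0367, limma), a call lost without RT replicates 2 or 4 or without any cold7 library, with adjusted p of 0.0576 to 0.122 in limma. Over all 21 alternative settings, that call was lost in 8. For RT against TN cluster 3 gave 0.98 ± 0.39 (adjusted p = 0.0590, limma), and passed when cold2 replicate 1, 2 or 3 was left out of the fit, with adjusted p of 0.0310 to 0.0471 in limma. Cluster 14 did not pass, with 0.69 ± 0.60 for RT against TN (adjusted p = 0.344, limma) and -0.30 ± 0.64 for cold7 against RT (adjusted p = 0.674, limma), and without RT replicate 4 and cold7 replicate 4, which held 16 and 10 cells. These values moved with single libraries: RT against TN was 1.24 without RT replicate 3, 0.38 without RT replicate 1 and 0.44 without RT replicate 2. For cold7 against RT it was -1.17 without cold7 replicate 3 (adjusted p = 0.0600, limma), -0.85 without RT replicate 3 and 0.29 without cold7 replicate 2. It lay between -0.06 and 0.01 without cold7 replicate 1, RT replicate 1 or RT replicate 2.

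In all, 2 of 4 clusters rose for RT against TN, where 39.1% of the 23 features tested passed, and 3 of 4 fell for cold7 against RT, where 73.9% did. These shares are near those of all features, so nothing particular to the population is read from them. In cold2 against TN, cold7 against TN, cold2 against RT and cold7 against cold2, 0 of 4 passed in limma, where 0%, 4.35%, 0% and 43.5% of the features did. At an unadjusted p under 0.05 the counts were 0, 0, 1 and 0. Where the coarser clusters 3 and 4 of resolution 0.4 were taken instead, both rose for RT against TN, with 1.58 ± 0.35 and 1.15 ± 0.28 (adjusted p = 0.00352 and 0.00368, limma). Both fell for cold7 against RT, with -1.48 ± 0.35 and -1.18 ± 0.28 (adjusted p = 0.00177 for each, limma). Of the 13 features of that resolution, 69.2% and 76.9% passed in these comparisons.

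Split by phase, the groups took a different order in S and in G2M calls. S was called in 50.4% ± 2.54 of the population in TN, 62.2% ± 2.68 in RT, 46.5% ± 2.98 in cold2 and 58.3% ± 1.06 in cold7. G2M was called in 26.2% ± 3.27 in TN, 26.4% ± 0.695 in RT, 35.6% ± 3.29 in cold2 and 18.6% ± 3.23 in cold7 (SD, n = 4 each). The cold2 libraries, at 31.1% to 38.7% G2M, lay above all others, and the cold7 libraries, at 13.99% to 21.6%, lay below all others. The other cells had G2M calls of 18.4% ± 2.10 in TN, 17.6% ± 5.07 in RT, 19.4% ± 8.80 in cold2 and 14.1% ± 2.42 in cold7. The separate calls were looked at after the values had been seen and were not tested.

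Depth, detected genes and mitochondrial share of the population gave no call between housing groups in the exact permutation tests. With 4 libraries against 4 and the adjustment over all these tests and those of phase, few outcomes could have passed. The median UMI count was 4110 ± 1343 in TN, 3933 ± 1220 in RT, 3022 ± 721 in cold2 and 4920 ± 1494 in cold7 (SD, n = 4 each). The smallest p of the 18 comparisons was 0.0857, for cold7 against cold2 in UMIs (exact permutation, adjusted p = 0.457). Median mitochondrial shares per library ran from 2.38% to 3.99% in all libraries but RT replicate 4, at 5.49%.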

How the data were processed

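The cell annotation tables of 16 single-cell RNA-seq libraries of mouse brown adipose stroma, 4 per housing group, were used. The submitters' processing notes name STAR, Cell Ranger 3.0.1 and mm10. How cells were filtered, integrated and clustered is not given in the sources used here. UMI and detected-gene counts per cell, the log10 gene to log10 UMI ratio, the mitochondrial fraction (given here in percent), S and G2M scores, phase calls and cluster numbers were deposited by the authors. Count and gene totals per cell after SCT normalisation, also deposited by the authors, were not used. Without gene values, cells could not be thinned to equal depth.

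Libraries were assigned to groups by their titles. The population and the lists were chosen with earlier results of these data known. Shares with 0.5 cells added to a cluster and to the rest became log2 odds, which limma 3.58.1 (R 4.3.3) fitted for the 4 groups together, with 6 two-sided contrasts. Benjamini-Hochberg adjustment of the p-values ran over all features of the whole table in a contrast, at a threshold of 0.05. The fits covered 24 classes (coarse cluster with or without a name), 58 finer clusters within classes as shares of all cells, and 49 of these as shares of their own class. Features needed 10 or more cells per library on average, and under 90% of their class in the last fit. Phase calls used libraries with at least 20 cells of a cluster, and clusters with 3 such libraries in every group. Finer clusters that met the minimum were described singly and the rest by counts. Library values were compared with exact permutation tests in scipy 1.17.1. The limma and permutation steps were tested on simulated data.

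Alternatives were 1 cell added, arcsine square roots, edgeR 4.0.16, a limit of 20% mitochondrial UMIs, each library left out, replicate numbers as a block or covariate, centred log ratios, no minimum, and resolution 0.4. Libraries of the same group all differed by more than sampling noise over the clusters of all cells, with chi-square values per degree of freedom of at least 14.5. Over the clusters of the population the lowest value was 2.22, for RT replicates 3 and 4. No p-value was computed, so that pair is not shown to differ beyond sampling noise there. Depth per library, 208 to 4045 cells of the population, limits small clusters.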

Additional observations from a re-analysis of the deposited data

Results flagged for a closer look

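Each value below lay far from the other libraries of its group, by the gap to its nearest neighbour relative to the range of the group's 4 libraries (Dixon's critical value 0.829). Of 96 groups of libraries examined, 7 met this criterion, and chance flags about 1 in 20 groups.

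Among the TN libraries, replicate 3 had 54.6% of the unnamed coarse cluster 1 cells in cluster 3 of resolution 0.4, where the others had 43.6% to 44.7%. This is also the library with the highest share of these cells. In RT, replicate 4 had a median of 5.49% mitochondrial UMIs in these cells and 6.28% in its other cells, where the other RT libraries had 2.56% to 3.03% and 3.24% to 3.74%. In cold2, replicate 1 had a median of 10849 UMIs and 31.6% mitochondrial UMIs in its other cells, where the other cold2 libraries had 2472 to 3011 UMIs and 2.49% to 3.69%. In cold2, replicate 2 held 4.27% of all its cells in cluster 14 and 4.12% in cluster 16, where the other cold2 libraries held 0.320% to 0.580% and 0.250% to 0.660%. The causes were not tested.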

How the results depend on the processing

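No housing comparison of the population's share passed under any of the settings run, and 0 of 5 finer clusters passed in any of them; signs of these uncalled estimates varied. For the share of all cells, RT against TN gave 0.10 within replicates 1 and 2, and cold7 against TN gave -0.085 with edgeR, -0.29 within replicates 3 and 4 and -1.01 percentage points as a plain difference. Leaving out each library gave -0.50 to 0.53 for RT against TN, -0.88 to 0.15 for cold2 against TN, -0.22 to 0.81 for cold7 against TN and -0.072 to 0.59 for cold7 against RT. For single clusters, reversed signs were 0.20 (cluster 14, RT against TN) and 0.45 (cluster 16, cold7 against TN) within replicates 1 and 2. Within replicates 3 and 4 they were -0.32 and -0.13 (cluster 3, cold2 against TN and RT), -0.016 and -0.11 (cluster 6, cold7 against TN and RT). With edgeR they were -0.26 and -0.078 (cluster 3, cold2 and cold7 against TN). Leaving out single libraries gave -1.31 to 0.0085 for cluster 14 and -0.64 to 0.30 for cluster 15 in RT against TN. It gave -0.24 to 1.76 for cluster 6 and -1.31 to 0.095 for cluster 16 in cold7 against TN, and -0.19 to 1.26 for cluster 3 in cold2 against RT. It gave -0.45 to 1.42, -0.16 to 1.33 and -0.28 to 0.83 for clusters 6, 3 and 15 in cold7 against RT, and -0.051 to 1.46 for cluster 6 in cold7 against cold2.

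Called phase clusters numbered 0 to 3 for RT against TN, 0 to 1 for cold2 against TN, for cold2 against RT and for cold7 against cold2, and 1 to 3 for cold7 against RT when single libraries were left out. With the replicate number as a block, 1 cluster passed for RT against TN, 1 for cold7 against RT and 1 for cold2 against RT. It was cluster 16 each time, and the calls lost were cluster 6 for RT against TN (0.94, adjusted p = 0.0867, limma) and clusters 3 and 6 for cold7 against RT (-0.80 and -0.89, adjusted p = 0.106 and 0.0540, limma). With the split of replicates 1 and 2 from 3 and 4 added to the fit, 1 passed for cold2 against RT. The block changed no call of the shares. Same-numbered libraries deviated together in 21 of 24 pairs (correlation over 0.1 across features, lowest 0.00546, median 0.477). The median over pairs of different number was -0.215, and 8 of 16 libraries correlated best with their own number. The criterion of a correlation over 0.1 in every pair was not met, and the main fits held no pairing. These values do not show that the replicate number can be ignored, and calls lost with it as a block are those named above. Clusters called for replicates 1 and 2 against 3 and 4 went to 1 at resolution 0.4 as shares of all cells and to 1 as shares of the population, where clusters are joined, and ranged from 4 to 5 for the second measure with single libraries left out. The difference in median UMIs between the population and the other cells was 346.5 without cold2 replicate 1. Other causes were not tested. Cell numbers of 10 to 40 per cluster in some libraries limit the phase calls.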
